A study of Homo sapiens with 6 samples.

Results

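Transcription factors that set or maintain the squamous epithelial state were read from arrays of a tongue squamous carcinoma line under ER stress. The 10 are TP63, SOX2, KLF5, GRHL2, GRHL3, PITX1, TFAP2A, TFAP2C, OVOL1 and ZNF750. They were chosen by name, with earlier results of these data known. Of these 10 genes, 9 were found by symbol among the 67528 transcript clusters of the array, each with 1 cluster. A transcript cluster is the set of probes that the array design assigns to a gene. No cluster carried the symbol TP63 alone, so TP63 was not analysed here.

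The samples were SCC25 cells, a human oral squamous carcinoma line grown in DMEM/F12 with 10% FBS. In 3 samples the cells received tunicamycin (TM) at 5 µg per mL for 6 h, and in 3 control samples they received the vehicle DMSO at 0.1% for 6 h. TM inhibits N-linked glycosylation and thereby leaves proteins misfolded in the ER. The submitters call the samples of each group independent biological replicates, all from 1 cell line, and 1 label field of the TM samples names SCC28 where every other field names SCC25. Total RNA was hybridised to the GeneChip HTA 2.0 array, and every value given here is a log2 expression value as deposited unless called a fold change.

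Squamous epithelium renews from basal cells, and p63, the product of TP63, is the regulator that defines them. SOX2 acts beside p63 in squamous carcinomas and KLF5 maintains proliferating basal cells, while GRHL3, OVOL1 and ZNF750 take part in the programme by which keratinocytes leave the basal layer and build the barrier. The AP-2 factors TFAP2A and TFAP2C, the homeobox protein PITX1 and the grainyhead protein GRHL2 keep epithelial and keratinocyte genes active.

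The array labelled TM 3 and the array labelled control 3 stood apart from the rest in their ER stress genes. DDIT3, the stress-induced factor CHOP, had 9.04, 8.88 and 5.86 in TM 1, 2 and 3, against 6.02, 6.01 and 9.28 in control 1, 2 and 3. HERPUD1, an ER membrane protein of ER-associated degradation, had 12.26, 12.16 and 9.34 in TM 1, 2 and 3, against 9.64, 9.48 and 12.35 in control 1, 2 and 3. In both genes TM 3 lay near control 1 and 2, and control 3 lay near TM 1 and 2. The labels were kept, and each result is given for all 6 arrays and for replicates 1 and 2 alone. Replicates 1 and 2 were taken because of these values, so that comparison is a description of 4 arrays chosen with the stress response known.

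The cells carried the markers of their label. KRT5, a basal keratin, had 13.19, 13.14 and 13.21 in TM arrays, against 13.19, 13.17 and 13.21 in control arrays. The 8 of 12 squamous markers with a cluster had values between 8.92 and 13.21, and their mean was 10.88 to 10.92 in TM arrays and 10.87 to 10.95 in control arrays. Of the 5 leukocyte markers with a cluster, PTPRC stayed between 3.19 and 3.33 in all 6 arrays, while CD68, a lysosomal protein, had 10.87 to 11.08 and LCP1, an actin-bundling protein, 9.68 to 9.89. Array medians were 5.49 to 5.52 in TM arrays and 5.39 to 5.48 in control arrays, and the precision of every value is limited by the number of arrays. In a bulk sample fewer cells of a type and less RNA per cell cannot be told apart.

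KLF5 and SOX2 varied most among the 9 factors, and their promoter sequences are shown because the values below turn on these genes. The sequences are the 250 bases upstream of annotated starts in RefSeq (GRCh38.p14, plus strand), and 5 of the 9 factors had an entry. KLF5 has a pair of annotated starts, at chr13:73054726-73054975 and chr13:73058755-73059004, and its cluster does not say which was used. The SOX2 sequence is chr3:181711675-181711924. Capitals mark the CCAAT box (CCAAT) and the GC box (GGGCGG) on either strand.
KLF5, start 1: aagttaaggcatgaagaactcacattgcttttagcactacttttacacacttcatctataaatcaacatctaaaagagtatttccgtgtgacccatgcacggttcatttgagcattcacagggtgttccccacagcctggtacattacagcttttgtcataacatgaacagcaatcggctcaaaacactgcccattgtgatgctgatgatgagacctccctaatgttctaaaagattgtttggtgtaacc
KLF5, start 2: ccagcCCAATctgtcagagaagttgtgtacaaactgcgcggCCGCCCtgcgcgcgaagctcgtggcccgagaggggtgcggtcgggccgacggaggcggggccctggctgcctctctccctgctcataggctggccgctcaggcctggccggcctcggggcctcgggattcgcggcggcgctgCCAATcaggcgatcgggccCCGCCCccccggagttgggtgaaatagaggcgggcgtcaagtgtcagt
SOX2: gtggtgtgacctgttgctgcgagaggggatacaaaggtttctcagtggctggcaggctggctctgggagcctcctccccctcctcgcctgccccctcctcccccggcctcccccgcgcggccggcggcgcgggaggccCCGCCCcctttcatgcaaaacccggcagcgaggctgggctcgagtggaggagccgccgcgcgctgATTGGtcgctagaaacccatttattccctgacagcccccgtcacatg
The KLF5 sequence of start 1 has a GC content of 40.8% and holds neither box, while that of start 2 has 70.8% with 2 CCAAT boxes and 2 GC boxes. SOX2 has a GC content of 68.8% with 1 CCAAT box and 1 GC box. In windows that run from 250 bases before to 50 bases after the start, CCAAT occurs in 34.6% and GGGCGG in 45.0% of all 35116 RefSeq promoters.

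Motifs named for factors of the unfolded protein response were searched on both strands of the same 300-base windows. The ER stress response element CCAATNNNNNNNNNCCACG, which itself contains a CCAAT box, occurs in 0.0769% of all windows, the XBP1 and ATF6 core TGACGTGG in 0.729% and the ATF4 element TGATGNAAT in 0.991%. None of these letters occurred in the windows of KLF5, SOX2, GRHL3, PITX1 or TFAP2A, and none in that of the stress gene HERPUD1. The window of HSPA5, the ER chaperone BiP, held 1 ER stress response element and neither of the other motifs. Such a search covers these letters in this window only. The paper that reported these data cites earlier work placing ER stress response elements and an ATF composite element in the HERPUD1 promoter. None of them was found by this search, so an absence here does not show that a promoter lacks such elements.

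With all 6 arrays none of the 9 factors had an adjusted p under 0.05 in limma, nor had any of the 67528 clusters (0%). At an unadjusted p under 0.05 there was 1 factor of 9, GRHL3, against 20.5% of all clusters, and GRHL3 was also the only one of the 9 whose TM values all lay above its control values, again against 20.5% of all clusters. The log2 fold changes of the 9 factors ran between -0.23 and 0.14 with a median of 0.09, beside a median of 0.04 over all clusters.

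In replicates 1 and 2 none of the 9 factors had an adjusted p under 0.05 in limma either, where 1.22% of all clusters did. KLF5 was nearest, with an adjusted p of 0.0507 in limma, and SOX2 followed with 0.0900. Unadjusted p was under 0.05 for 5 of the 9 factors against 26.9% of all clusters. Of these, 4 were higher in TM (KLF5, GRHL3, PITX1 and OVOL1) where 14.8% of all clusters were, and 1 was lower in TM (SOX2) where 12.1% were. Both TM values lay above both control values in KLF5, GRHL3, PITX1, OVOL1 and ZNF750, against 36.0% of all clusters, and below them in SOX2, against 24.5%. The median log2 fold change of the 9 factors was 0.16, beside 0.04 over all clusters.

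**Figure D1:**
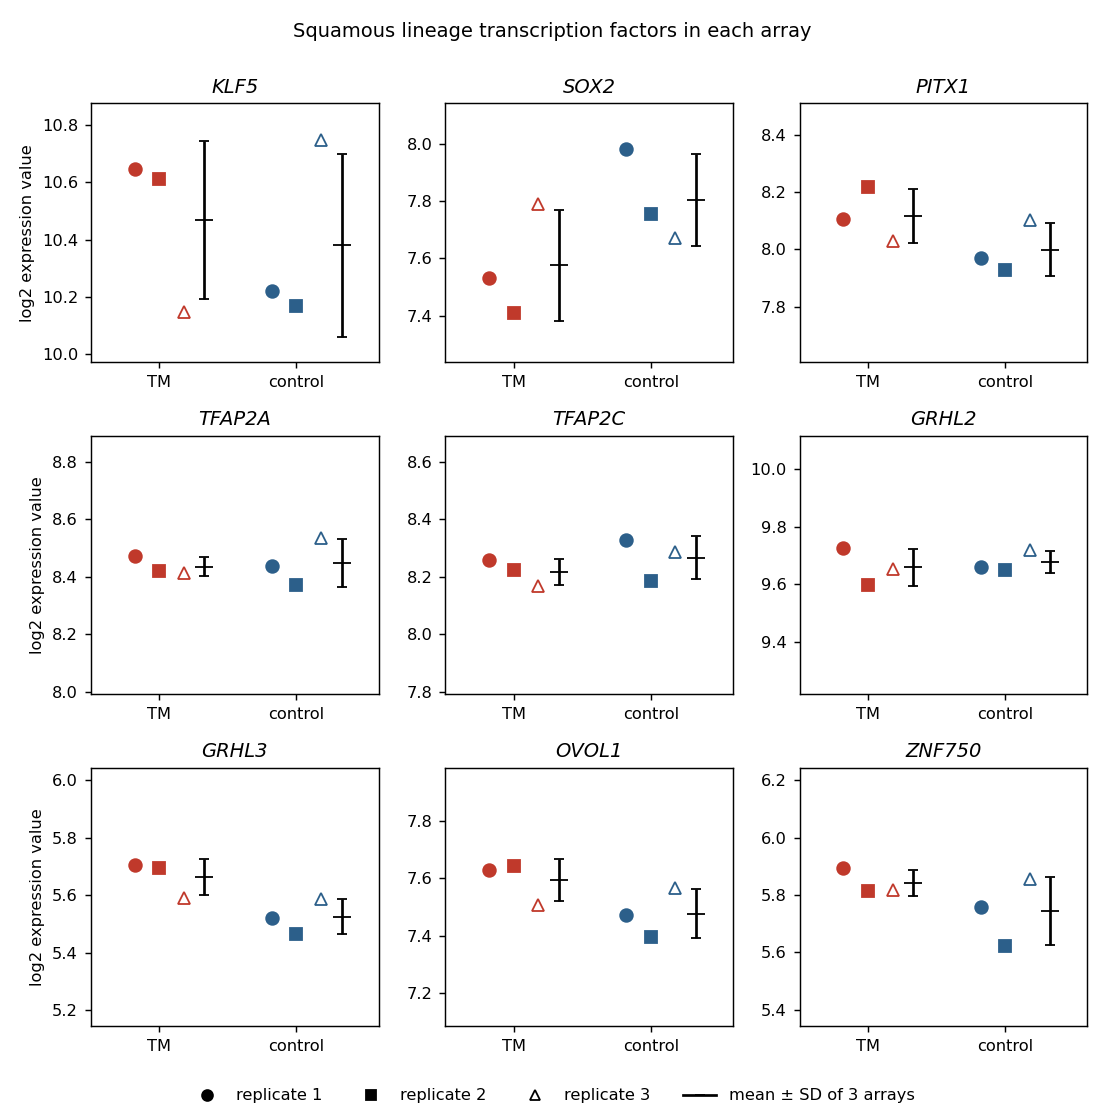
Log2 expression value (vertical axis, the same span in each panel) of the 9 factors in TM arrays and control arrays, with each point labelled by its replicate and a line at the group mean. KLF5 has TM 3 at 10.15 beside control 1 and 2 and control 3 at 10.75 beside TM 1 and 2, while GRHL2, TFAP2A and TFAP2C span at most 0.16.

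KLF5 is a zinc-finger factor of proliferating basal cells. It had 10.64, 10.61 and 10.15 in TM 1, 2 and 3, against 10.22, 10.17 and 10.75 in control 1, 2 and 3. TM 1, TM 2 and control 3 were high and the other arrays were low, so that the groups overlapped. The means were 10.47 ± 0.28 in TM and 10.38 ± 0.32 in control (SD, n = 3 each), with a log2 fold change of 0.09 (95% confidence interval -0.36 to 0.54, adjusted p = 0.816 in limma). In replicates 1 and 2 the log2 fold change was 0.43 (SE 0.06, 95% confidence interval 0.28 to 0.59, adjusted p = 0.0507 in limma), which is 1.35-fold, and TM 3 was 0.60 below control 3. KLF5 lay close to the threshold in replicates 1 and 2, and over the alternative settings its adjusted p ran between 0.0131 and 0.254, with 3 of 10 settings under 0.05.

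KLF5 was high and low in the same arrays as DDIT3 and HERPUD1, as were KLF6, SOX9, PRDM1, CLDN1 and TGM1 below. Over the 6 arrays the Pearson r of KLF5 was 0.994 with DDIT3 and 0.991 with HERPUD1. The share of all clusters with such an r was not computed. Among 818 protein-coding clusters with a range of at least 0.5, the most alike were HSPA13, an ER-associated relative of HSP70, with r = 0.9997, DUSP16, a phosphatase of MAP kinases, with 0.9994, and TES, a focal adhesion protein, with 0.9984. HSPA13 had 9.27, 9.24 and 8.45 in TM arrays, against 8.56, 8.49 and 9.44 in control arrays. The same arrays were high and low as in KLF5. These correlations describe 6 arrays of 1 experiment that share their treatment and their array scaling, and they were ranked by likeness.

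SOX2, an HMG-box factor of stem and progenitor cells that is often amplified in squamous carcinoma, had a different order. It had 7.53, 7.41 and 7.79 in TM 1, 2 and 3, against 7.98, 7.75 and 7.67 in control 1, 2 and 3. TM 1 and 2 were the lowest of the 6 arrays, and TM 3 lay within the range of the control arrays. The means were 7.58 ± 0.19 in TM and 7.80 ± 0.16 in control (SD, n = 3 each), with a log2 fold change of -0.23 (95% confidence interval -0.51 to 0.05, adjusted p = 0.321 in limma). With every array set to the same median, the 3 TM values (1.89 to 2.27) lay below the 3 control values (2.28 to 2.54). The log2 fold change was then -0.30, with an adjusted p of 0.217 in limma. The gap was narrow, with TM 3 at 2.2665 and control 2 at 2.2789. In this scaling 39.8% of all clusters had a positive log2 fold change, with a median of -0.03. The share of all clusters that separate downward in it was not computed.

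In replicates 1 and 2 the log2 fold change of SOX2 was -0.40 (SE 0.10, 95% confidence interval -0.64 to -0.15, adjusted p = 0.0900 in limma), which is 0.759-fold, while TM 3 was 0.12 above control 3. Unlike in KLF5, the control 3 value of SOX2 (7.67) lay between TM 1 (7.53) and control 2 (7.75). It was the lowest control value, nearest to control 2 and nearer to TM 1 than to control 1 (7.98). The Pearson r of SOX2 over the 6 arrays was -0.79 with both DDIT3 and HERPUD1. The clusters most like SOX2 were SLFN12, a Schlafen family protein, with r = 0.988, OSGEPL1, a mitochondrial tRNA-modifying enzyme, with 0.986, and PCDH18, a protocadherin, with 0.978. SOX2-OT, the noncoding transcript that overlaps SOX2, had 4.12, 4.14 and 4.09 in TM arrays, against 4.07, 4.07 and 4.07 in control arrays. These values lay near the lower quartiles of the arrays (3.88 to 3.99), so they say little about a change. The log2 fold change of SOX2-OT was 0.05 over all 6 arrays (95% confidence interval -0.06 to 0.16, adjusted p = 0.542 in limma).

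PITX1, a homeobox factor of oral epithelium and hindlimb, had 8.11, 8.22 and 8.03 in TM arrays, against 7.97, 7.93 and 8.10 in control arrays. Control 3 lay above TM 3 and the groups overlapped. The log2 fold change was 0.12 with all arrays (95% confidence interval -0.05 to 0.29, adjusted p = 0.387 in limma) and 0.21 in replicates 1 and 2 (95% confidence interval 0.04 to 0.38, adjusted p = 0.135 in limma). Its Pearson r was 0.828 with DDIT3 and 0.838 with HERPUD1 over the 6 arrays. The clusters most like it were PRSS22, a serine protease, with r = 0.980, WHR1 with 0.979 and GDF15, a stress-induced cytokine, with 0.967.

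**Figure D2:**
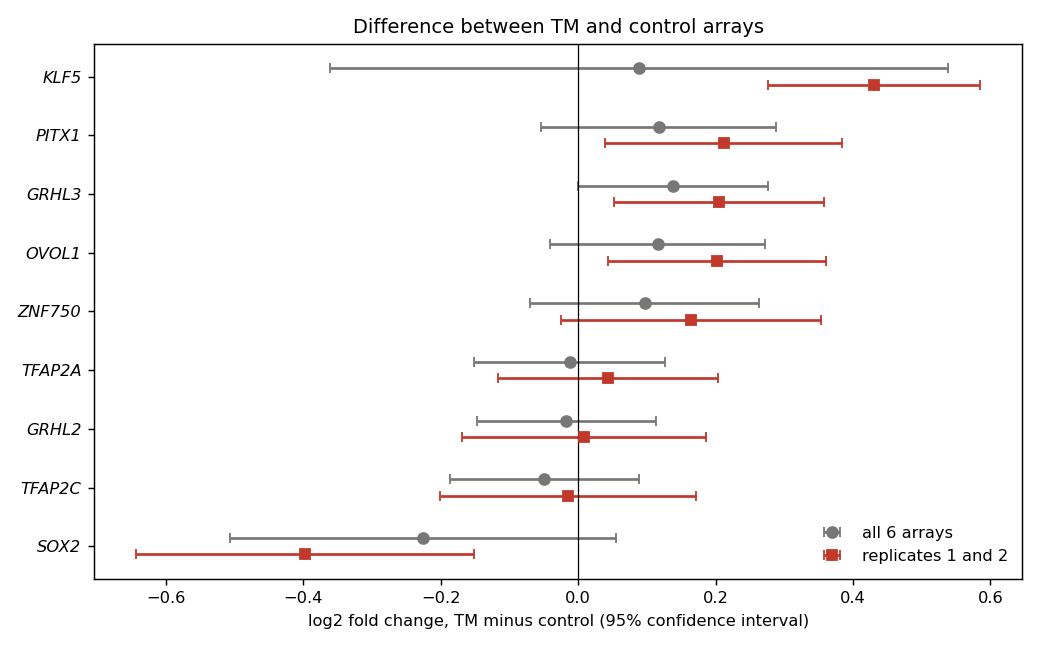
Log2 fold change, TM minus control, of the 9 factors (horizontal axis) with 95% confidence intervals from limma, as circles for all 6 arrays and squares for replicates 1 and 2. KLF5 has 0.09 with all arrays and 0.43 in replicates 1 and 2, and SOX2 has -0.23 and -0.40, while the intervals of GRHL2, TFAP2A and TFAP2C include 0 in both.

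GRHL3, a grainyhead factor of barrier formation, had 5.70, 5.70 and 5.59 in TM arrays, against 5.52, 5.47 and 5.59 in control arrays. The groups did not overlap, though TM 3 and control 3 differed by 0.0036 only. The log2 fold change was 0.14 with all arrays (SE 0.06, adjusted p = 0.244 in limma) and 0.21 in replicates 1 and 2 (95% confidence interval 0.05 to 0.36, adjusted p = 0.118 in limma). With every array set to the same median the TM values ran between 0.07 and 0.22 and the control values between -0.01 and 0.20, so the groups overlapped, and the log2 fold change was 0.07.

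OVOL1, a zinc-finger repressor that restrains the proliferation of keratinocytes, had 7.63, 7.64 and 7.51 in TM arrays, against 7.47, 7.39 and 7.56 in control arrays. TM 3 minus control 3 was -0.06 in OVOL1, against -0.60 in KLF5. It was -0.07 in PITX1 and GRHL2, -0.12 in TFAP2A and TFAP2C and -0.04 in ZNF750, and positive in SOX2 and GRHL3. The share of all clusters with TM 3 below control 3 was not computed. The log2 fold change of OVOL1 was 0.12 with all arrays (95% confidence interval -0.04 to 0.27, adjusted p = 0.357 in limma). In replicates 1 and 2 it was 0.20 (95% confidence interval 0.04 to 0.36, adjusted p = 0.128 in limma). ZNF750, a zinc-finger factor downstream of p63 in differentiation, had 5.89, 5.82 and 5.82 in TM arrays, against 5.76, 5.62 and 5.86 in control arrays. Its control 3 value lay among the TM values, and its log2 fold change was 0.10 with all arrays (adjusted p = 0.461 in limma) and 0.16 in replicates 1 and 2 (95% confidence interval -0.03 to 0.35, adjusted p = 0.232 in limma).

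GRHL2, which keeps epithelial junction genes active, had 9.73, 9.60 and 9.65 in TM arrays, against 9.66, 9.65 and 9.72 in control arrays. The groups overlapped, and the 95% confidence interval of the log2 fold change was -0.15 to 0.11 with all arrays and -0.17 to 0.19 in replicates 1 and 2. TFAP2A had 8.47, 8.42 and 8.41 in TM arrays, against 8.44, 8.37 and 8.53 in control arrays. TFAP2C had 8.26, 8.22 and 8.17 in TM arrays, against 8.33, 8.18 and 8.29 in control arrays. Both AP-2 genes overlapped between the groups, with intervals of -0.15 to 0.13 for TFAP2A and -0.19 to 0.09 for TFAP2C over all 6 arrays. Under quantile normalization the sign of GRHL2 and TFAP2A over all 6 arrays turned, to 0.0353 and 0.0129.

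Relatives of these factors in the same families were read beside them. Of 17 relatives 15 had a cluster, none was called with all 6 arrays, and 3 rose in replicates 1 and 2, where 1.22% of all clusters were called in either direction. KLF4, a factor of terminal differentiation in keratinocytes, had 8.95, 8.99 and 8.48 in TM arrays, against 8.28, 8.35 and 8.78 in control arrays. Its log2 fold change in replicates 1 and 2 was 0.66 (SE 0.06, 1.58-fold, adjusted p = 0.0302 in limma). KLF6, a widely expressed relative, had 9.18, 9.22 and 8.67 in TM arrays, against 8.70, 8.63 and 9.28 in control arrays, with a log2 fold change of 0.54 in replicates 1 and 2 (1.45-fold, adjusted p = 0.0382 in limma). SOX9, a factor of epithelial progenitors and cartilage that was picked for mention after its values were seen, had 9.14, 9.08 and 8.52 in TM arrays, against 8.63, 8.55 and 9.31 in control arrays. It rose by 0.52 in replicates 1 and 2 (1.43-fold, adjusted p = 0.0431 in limma), while SOX2 had -0.40 in the same arrays. In KLF6 and SOX9 the same arrays were high as in KLF5, with control 3 the highest of the 6.

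**Figure D3:**
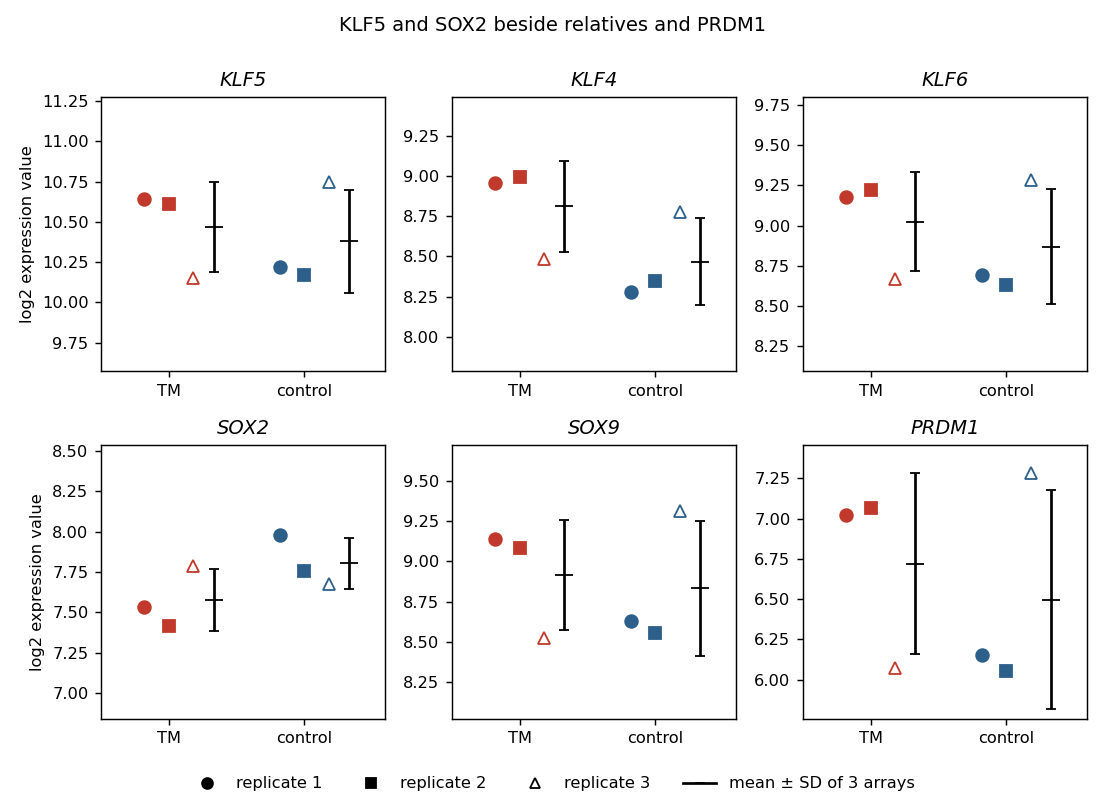
Log2 expression value (vertical axis, the same span in each panel) of KLF5, KLF4, KLF6, SOX2, SOX9 and PRDM1 in TM arrays and control arrays, each point labelled by its replicate and a line at the group mean. In KLF5, KLF6, SOX9 and PRDM1 control 3 is the highest of the 6 arrays, and in SOX2 TM 1 and 2 are the lowest.

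No other relative was called. TFAP2E had 6.63, 6.79 and 6.67 in TM arrays, against 6.40, 6.42 and 6.45 in control arrays. Its TM values all lay above its control values, as in 20.5% of all clusters (log2 fold change 0.28 over all 6 arrays, adjusted p = 0.143 in limma). SOX4 and KLF10 had log2 fold changes of 0.0007 and -0.01 over all 6 arrays, and OVOL3 had 0.13. Over the 15 relatives the median log2 fold change was 0.08 with all arrays and 0.12 in replicates 1 and 2, beside 0.04 over all clusters in both.

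Among other transcription regulators of keratinocytes, 17 of 20 had a cluster. In replicates 1 and 2, 1 of the 17 rose, where 1.22% of all clusters were called in either direction. PRDM1, the repressor Blimp-1, which acts in differentiating epidermis and in plasma cells, had 7.02, 7.07 and 6.07 in TM arrays, against 6.15, 6.06 and 7.28 in control arrays. TM 1, TM 2 and control 3 were again high and the other arrays low, and the log2 fold change in replicates 1 and 2 was 0.94 (SE 0.07, 1.92-fold, adjusted p = 0.0175 in limma). HES1, a target of Notch signalling, had 9.15, 9.04 and 9.40 in TM arrays, against 9.44, 9.40 and 9.28 in control arrays, with a log2 fold change of -0.33 in replicates 1 and 2 (adjusted p = 0.0741 in limma). MAF had -0.26, FOXE1 -0.17, GATA3 0.18, BARX2 0.20 and CEBPD 0.28 as log2 fold changes in replicates 1 and 2, none of them called. The median of the list was 0.02 with all arrays and 0.05 in replicates 1 and 2.

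No value was read for TP63 itself, but genes reported as targets of p63 could be read. Of 22 such genes 21 had a cluster and none was called in either comparison, with a median log2 fold change of 0.03 over all 6 arrays and 0.02 in replicates 1 and 2. At an unadjusted p under 0.05 in replicates 1 and 2, 3 of the 21 were higher in TM, beside 14.8% of all clusters, and 3 were lower, beside 12.1%. KRT14, a basal keratin, had 12.66, 12.63 and 12.76 in TM arrays, against 12.79, 12.70 and 12.64 in control arrays. The ends of the range in replicates 1 and 2 were IGFBP3, a binding protein of insulin-like growth factors, at 0.33 and DST, which anchors keratins to hemidesmosomes, at -0.26. CDKN1A, the cell cycle inhibitor p21, had 8.43, 8.40 and 8.21 in TM arrays, against 8.14, 8.04 and 8.27 in control arrays (log2 fold change 0.32 in replicates 1 and 2, adjusted p = 0.0721 in limma). S100A2, a calcium-binding protein of basal keratinocytes, had a log2 fold change of -0.25, FRAS1, a basement membrane protein, 0.19, and FERMT1, the integrin activator kindlin-1, -0.07 in replicates 1 and 2.

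Junction and splicing genes of epithelia, among them genes that GRHL2 and OVOL1 are known to govern, had a cluster in 16 of 16. Of these CLDN1, a claudin of tight junctions, rose in replicates 1 and 2, where 1.22% of all clusters were called in either direction. It had 11.13, 11.00 and 10.46 in TM arrays, against 10.56, 10.46 and 11.14 in control arrays, with a log2 fold change of 0.56 in replicates 1 and 2 (adjusted p = 0.0481 in limma). ESRP1, an epithelial splicing factor, had 10.15, 10.09 and 9.80 in TM arrays, against 9.85, 9.75 and 10.23 in control arrays (log2 fold change 0.32 in replicates 1 and 2, adjusted p = 0.0761 in limma). ITGB6, an integrin chain of epithelia, had -0.27 in replicates 1 and 2, CLDN4 -0.11, CDS1 -0.08, CGN 0.09 and LLGL2 0.09, none of them called. The list median was 0.03 with all arrays and 0.10 in replicates 1 and 2.

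Of 9 genes of the mesenchymal programme, which OVOL and grainyhead factors are known to restrain, 8 had a cluster. In replicates 1 and 2, 1 of the 8 rose, where 1.22% of all clusters were called in either direction. SNAI1, a zinc-finger repressor of E-cadherin, had 6.19, 6.19 and 6.18 in TM arrays, against 5.75, 5.74 and 6.05 in control arrays. The TM values as deposited had an SD of 0.0056 and lay above every control value, as in 20.5% of all clusters. SNAI1 thus did not follow the order of the stress genes in TM 3. Control 3 did lie above control 1 and 2, as in the stress genes. The log2 fold change of SNAI1 was 0.34 with all arrays (adjusted p = 0.150 in limma) and 0.45 in replicates 1 and 2 (adjusted p = 0.0463 in limma). With every array set to the same median it was 0.27 with all arrays (adjusted p = 0.221 in limma). ZEB1 had -0.16, FN1 -0.11, VIM -0.08 and SPARC 0.13 as log2 fold changes in replicates 1 and 2, none of them called, and the list median was -0.01 with all arrays and -0.02 in replicates 1 and 2.

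Terminal differentiation genes, the late targets of the programme that GRHL3, OVOL1 and ZNF750 serve, had a cluster in 22 of 22. With all 6 arrays none was called, 20 of 22 log2 fold changes were positive beside 61.2% of all clusters, and the median was 0.14 beside 0.04 over all clusters. The mean of the list was 6.78, 6.82 and 6.73 in TM 1, 2 and 3, against 6.64, 6.64 and 6.68 in control 1, 2 and 3, with no overlap. After median centring the mean was 1.30, 1.30 and 1.20 in TM arrays, against 1.19, 1.16 and 1.29 in control arrays, so that the groups overlapped. In that scaling 15 of 22 were positive beside 39.8% of all clusters, with a median of 0.07 beside -0.03. In replicates 1 and 2 the list had 1 call of 22 beside 1.22% of all clusters, 19 positive log2 fold changes beside 58.7%, and a median of 0.14 beside 0.04. Of 4 lists of markers of other cell types, the endothelial and glandular lists had means that were also higher in every TM array, and the fibroblast and leukocyte lists did not. The 6 endothelial markers of 6, at values between 3.98 and 7.13, were all higher in TM with a median of 0.13, and their mean was 5.35 to 5.38 in TM arrays and 5.19 to 5.26 in control arrays. The 6 glandular markers of 6, at 3.29 to 6.81, had a median of 0.11, and their mean was 5.62 to 5.68 in TM arrays and 5.50 to 5.56 in control arrays. Of 5 fibroblast markers 3 were higher in TM and 2 lower, among them LUM, a matrix proteoglycan, at -0.18, and the mean was 5.99 to 6.09 in TM arrays and 5.97 to 6.09 in control arrays. Of 5 leukocyte markers 4 were higher in TM, by at most 0.09, and the mean was 7.09 to 7.14 in TM arrays and 6.99 to 7.14 in control arrays. After median centring 6 of 6 endothelial markers were positive with a median of 0.06, and 5 of 6 glandular markers with a median of 0.04. Of 5 fibroblast markers 3 were then positive with a median of 0.06, and of 5 leukocyte markers 1 with a median of -0.01. No marker is listed at 0 on this scale, and the part of these shifts in the values of the differentiation genes and of GRHL3 was not tested.

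TGM1, the transglutaminase that cross-links the cornified envelope, rose in replicates 1 and 2. It had 8.18, 8.24 and 7.78 in TM arrays, against 7.77, 7.71 and 8.21 in control arrays, with a log2 fold change of 0.47 in replicates 1 and 2 (adjusted p = 0.0487 in limma). CNFN, a cornified envelope protein, had 7.32, 7.50 and 7.34 in TM arrays, against 7.01, 7.15 and 7.13 in control arrays (log2 fold change 0.29 over all 6 arrays, adjusted p = 0.144 in limma). LCE3D, another envelope protein, had 7.15, 7.18 and 6.96 in TM arrays, against 6.81, 6.87 and 6.78 in control arrays (0.28, adjusted p = 0.147 in limma). In CNFN and LCE3D every TM array lay above every control array, as in 20.5% of all clusters. In TGM1 control 3 lay with TM 1 and 2. Of the genes named above, FOXE1, FERMT1, CDS1, FN1 and LUM had every TM array below every control array. The share of all clusters in that direction was not computed. The suprabasal keratins KRT10 and KRT13 had log2 fold changes of -0.11 and 0.03 over all 6 arrays, and KLK7, a protease of the cornified layer, had -0.0018.

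**Figure D4:**
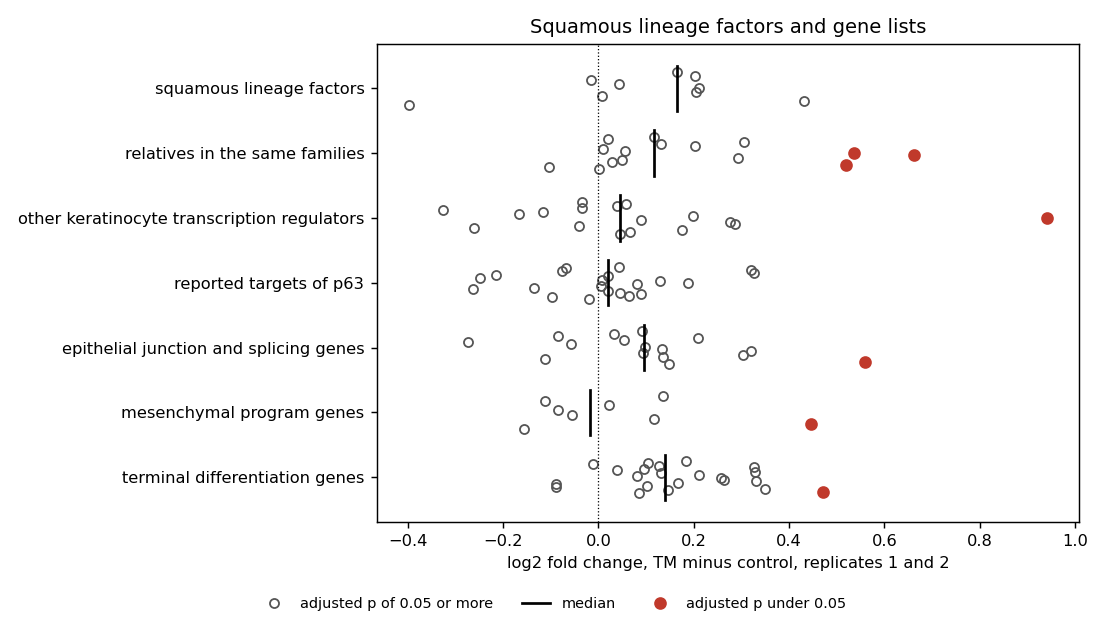
Log2 fold change, TM minus control, in replicates 1 and 2 (horizontal axis) of the 9 factors and the genes of 6 lists, with filled points for an adjusted p under 0.05 in limma and a vertical bar at each median. None of the 9 factors is filled, and the filled points are KLF4, KLF6, SOX9, PRDM1, CLDN1, SNAI1 and TGM1.

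The 7 listed genes that rose in replicates 1 and 2 were not called with all 6 arrays, where their log2 fold changes ran between 0.08 for SOX9 and 0.34 for KLF4 and SNAI1. In 6 of the 7 the control 3 value lay above TM 3, by 0.29 in KLF4 to 1.21 in PRDM1, and SNAI1 was the exception. With 1 of the 4 arrays left out, a group is a lone array that is assumed to vary like the other group. Then each of the 7 lost its call without TM 1, TM 2 or control 2, and PRDM1 alone kept it without control 1, while the log2 fold changes ran between 0.48 and 0.56 for SOX9, 0.63 and 0.70 for KLF4, and 0.89 and 0.99 for PRDM1. The values were 4.88 to 7.89 for the fibroblast markers and 3.19 to 11.08 for the leukocyte markers, and no gene of either list was called. All 10 ER stress genes listed rose in replicates 1 and 2, where 1.22% of all clusters were called, and none was called with all 6 arrays. Replicates 1 and 2 were taken because of the values of such genes, so this count lends no support to that choice. TBCD, the neighbour of ZNF750, had a log2 fold change of 0.03 over all 6 arrays.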

How the data were processed

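Total RNA of SCC25 cells was measured on 3 TM arrays and 3 control arrays (GeneChip HTA 2.0). The authors deposited normalized log2 values for every transcript cluster in each array. The submitters' processing notes name MAS5. How background was corrected, and on which genome build, is not given in the sources used here. Symbols came from the platform annotation: 23781 clusters carry 1 symbol, 1543 several and 42204 none. For each gene the cluster with the highest mean was taken.

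The fit of TM against control used limma 3.58.1 under R 4.3.3 (lmFit and eBayes, two-sided), with Benjamini-Hochberg adjustment over all 67528 clusters at 0.05 and no filter. The same fit was run on replicates 1 and 2. The limma step was tested on simulated data with means and SDs from replicates 1 and 2. That test held no arrays that depart as TM 3 and control 3 do. Lists are described by counts and medians, with no set test. Named were, per list, direction and fit, up to 2 genes of lowest p and, for the 3 factors with the largest range the 3 most correlated protein-coding clusters. The values of KRT5, KRT14 and SOX9 were given outside this rule. The members and lists were chosen with earlier results of these data known. Alternatives were quantile normalization, median centring, only clusters above the median level, trend and robust eBayes, an unmoderated test, the replicate number as a block, and leaving out arrays. Promoters came from RefSeq (GRCh38.p14). Figures were drawn with matplotlib 3.10.9.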

Additional observations from a re-analysis of the deposited data

How the results depend on the processing

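With all 6 arrays no cluster was called in limma, against 1 in the unmoderated test and 825 without both replicate 3 arrays, and no factor was called in any setting. In replicates 1 and 2 the 825 calls (369 higher and 456 lower in TM) became 1872 with median centring (563 higher and 1309 lower), 5577 among clusters above the median level, 4571 with the trend and robust options, 1 in the unmoderated test, and 0 to 129 with single arrays left out, which leaves a group with 1 array (0 without TM 1 or TM 2, 129 without control 1, 30 without control 2). The factors called there were 1 with quantile normalization (KLF5), 2 above the median level (KLF5 and SOX2) and 1 with the trend and robust options (KLF5).

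The replicate number as a block gave 28 calls and none among the factors, where KLF5 had an adjusted p of 0.107 in limma. Deviations of same-numbered arrays correlated at -0.177, -0.311 and -0.534, values in which the replicate 3 arrays weigh, and at -0.066 within replicates 1 and 2. The pairing was not shown, and the samples were taken to share only a number. All 7 listed genes lost their call in this fit and in the unmoderated test, and SNAI1 (0.0558) and TGM1 (0.0525) also with quantile normalization. The alternatives for these genes were chosen after seeing the data.

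Directions turned in 5 genes. With all 6 arrays GRHL2 had 0.0353 and TFAP2A 0.0129 on the log2 scale with quantile normalization, and 0.0082 and 0.0432 without both replicate 3 arrays. With single arrays left out GRHL2 ran from -0.0511 to 0.0136, TFAP2A from -0.0502 to 0.0315, KLF5 from -0.0163 to 0.2717 and SOX9 from -0.0549 to 0.324. In replicates 1 and 2 GRHL2 had -0.0334 with centring and ran from -0.0565 to 0.0729 with single arrays left out, and TFAP2C had 0.0007 with quantile normalization and ran from -0.0869 to 0.0576. The cause was not tested. SOX2, GRHL3, PITX1, OVOL1 and ZNF750 kept their direction in every setting run. Averaging several clusters of a gene was not run, since each factor has 1. The number of arrays sets the precision.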
